A study of Homo sapiens with 6 samples.

Results

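TRAIL (TNFSF10), its receptors and the proteins that carry its signal to the executing caspases were followed in 3 populations of MDA-MB-231, a cell line from a human breast cancer of the triple-negative type. The set was defined by name as 10 genes, namely TNFSF10, TNFRSF10A, TNFRSF10B, TNFRSF10C, TNFRSF10D, TNFRSF11B, FADD, CASP8, CFLAR and CASP6, out of 11963 genes with a named probe set. Every probe set annotated to 1 of these symbols alone was taken, which gave 27 probe sets for 9 of the genes, out of 19064 such probe sets in all. TNFRSF10A had none and is not analysed here. A further 2 probe sets were annotated to TNFRSF10C together with LOC254896 and are described but not counted.

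Total RNA was measured on 6 Affymetrix arrays, 2 each for S1b, S1a and the parental line. The labels describe S1b and S1a as isolated "seeder" populations of MDA-MB-231 and give no treatment; all cultures were grown below confluence in DMEM with 10% fetal bovine serum. Each isolate is 1 population, and no isolated population without the seeder label is among the groups, so being isolated and being a seeder cannot be told apart. The 2 arrays within a population are labelled as biological repeats with no word on what was separate about them, so spreads and p-values cover the difference between these arrays only.

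TRAIL is a membrane-bound or shed ligand of the tumour necrosis factor family. It binds the death receptors TNFRSF10A (DR4) and TNFRSF10B (DR5), whose intracellular death domains recruit the adaptor FADD, and FADD in turn recruits the initiator caspase 8. CFLAR (c-FLIP) resembles caspase 8 and competes for its place on FADD, while TNFRSF10C, TNFRSF10D and the secreted TNFRSF11B (osteoprotegerin) bind TRAIL without passing on a complete death signal. Caspase 6, an executing caspase that cleaves nuclear lamins and can also process caspase 8, acts further down. The genes were chosen with their signals in all 3 populations known, so their values are given as a description and no p-value is given for any member.

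Values are signals on the linear scale of the array, set by the authors so that each array has the same trimmed mean of 500.2 units. A log2 difference was taken from log2(signal + 3.949), and "isolates" stands for the equally weighted mean of S1b and S1a. Signals of different probe sets depend on their probes, so levels are compared between populations and not between genes. A probe set that averaged below 44 units, the 40th percentile of such averages, is called dim. Of the 27 probe sets, 4 were dim. Of the 23 others, 18 had all 4 isolate arrays below both parental arrays, 2 had them all above and 3 overlapped. CFLAR alone gave 9 of the 18 and TNFSF10 gave 3. Probe sets of 1 gene are not independent readings, so this is not a count of genes. Over all 11860 named probe sets above 44 units, 29.5% had the isolate arrays all below and 24.8% all above.

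TNFSF10, the ligand, differed most among the members. Its brightest probe set (214329_x_at) gave 11.6 and 24.9 units in S1b, 15.2 and 31.0 units in S1a, and 871 and 674 units in the parental line. The 2 isolates lay in 1 range, under the 44 units that separate dim probe sets, and far from both parental arrays. The mean signal was 18.3 ± 9.41 in S1b, 23.1 ± 11.1 in S1a and 773 ± 139 in parental cells (SD, n = 2 each). Set against the 44 units, the isolates were at least 17.6-fold lower than the parental line.

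Both other TNFSF10 probe sets gave the same order. Probe set 202688_at read 32.0 and 17.4 units in S1b, 36.5 and 28.4 units in S1a, and 708 and 751 units in parental cells, at least 16.6-fold lower in the isolates. Probe set 202687_s_at read 16.2 and 20.6 units in S1b, 17.1 and 21.5 units in S1a, and 523 and 426 units in parental cells, at least 10.8-fold lower. S1b and S1a overlapped in all 3 probe sets. The fitted log2 differences of isolates from parental were -5.04, -4.53 and -4.39, and they depend on the pseudocount because the isolate signals were dim. With S1b set against S1a, the 3 differences were -0.29, -0.38 and -0.06. Of the 7791 genes tested, 99.9% had a smaller range between the 3 population means than TNFSF10.

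**Figure D1:**
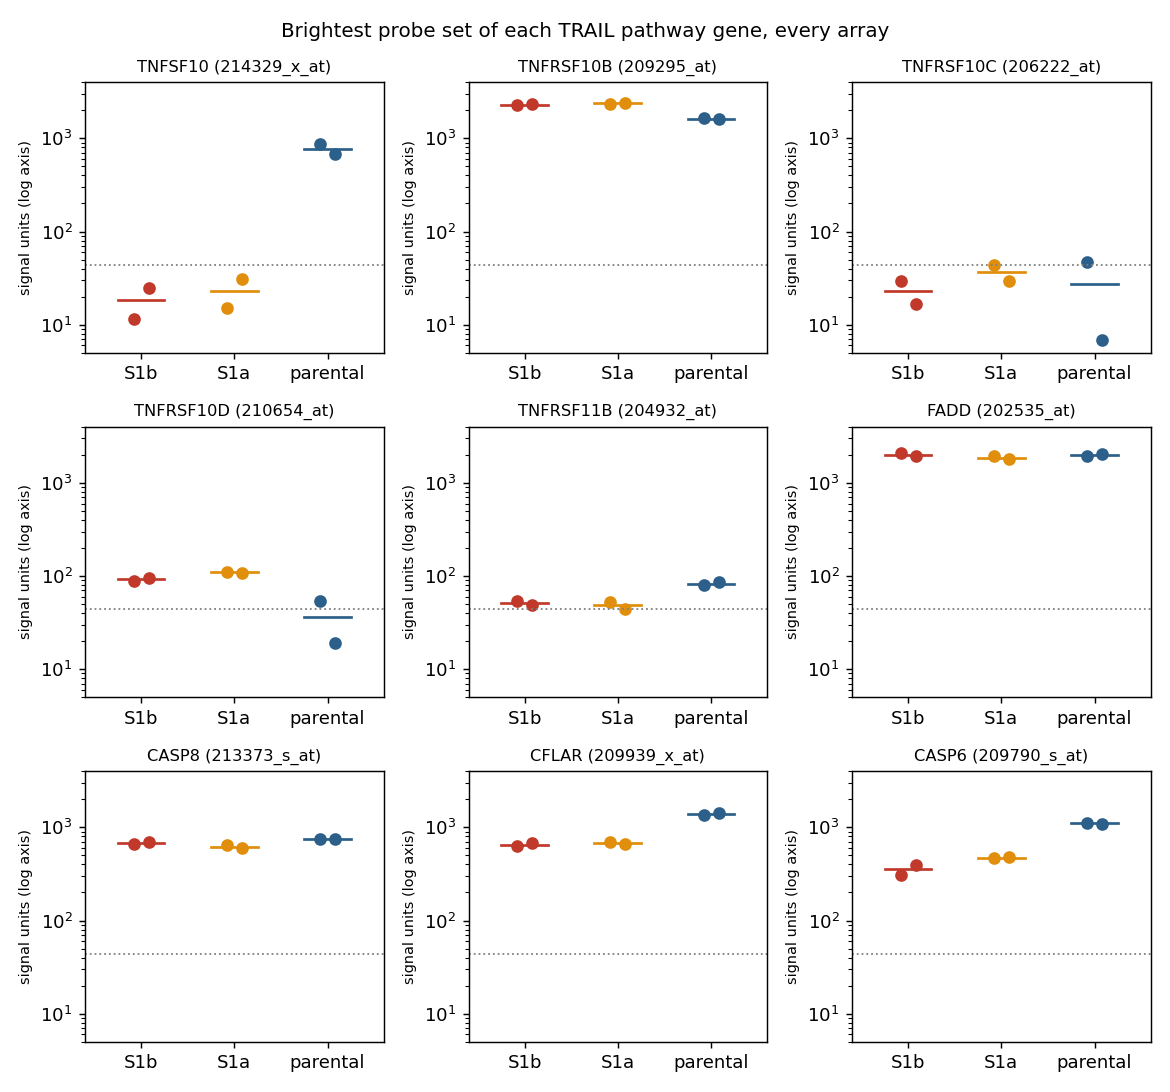
Signal (arbitrary units, log axis) of the brightest probe set of each measured member on each array, with S1b and S1a left of the parental line; points are arrays and bars are means of 2 arrays. TNFSF10 stands at 11.6 to 31.0 units on the isolate arrays and at 871 and 674 units on the parental arrays, while the 6 FADD readings lie between 1804 and 2082 units.

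The promoters of TNFSF10 and CASP8 are shown because a window of each holds the letters of an interferon-stimulated response element, the site bound by interferon regulatory factors and STAT complexes, while the genes read differently on the arrays. Each window runs from 250 bases before to 50 bases after a RefSeq transcription start (build GRCh38.p14), the capitals mark the match to GAAA, any 2 bases and GAAA on either strand, and both sequences are given along the gene's own strand. The TNFSF10 window lies at chr3:172523381-172523680 on the minus strand, and the CASP8 window at chr2:201233213-201233512 on the plus strand.
TNFSF10: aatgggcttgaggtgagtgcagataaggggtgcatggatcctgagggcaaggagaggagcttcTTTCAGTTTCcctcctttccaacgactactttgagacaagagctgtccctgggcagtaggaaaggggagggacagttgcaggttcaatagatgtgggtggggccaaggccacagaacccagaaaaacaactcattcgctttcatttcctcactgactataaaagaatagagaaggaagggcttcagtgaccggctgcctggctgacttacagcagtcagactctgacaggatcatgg
CASP8: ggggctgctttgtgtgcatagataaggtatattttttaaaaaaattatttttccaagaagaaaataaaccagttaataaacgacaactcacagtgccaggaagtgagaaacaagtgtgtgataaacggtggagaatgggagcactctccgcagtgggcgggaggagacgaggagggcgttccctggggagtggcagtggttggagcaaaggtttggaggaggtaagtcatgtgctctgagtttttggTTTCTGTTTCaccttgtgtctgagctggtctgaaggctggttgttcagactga

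In both windows the match lies on the opposite strand to the gene. It starts 187 bases before the start site in TNFSF10 and 3 bases before it in CASP8. The same letters occur in 3.57% of all 35116 promoter windows in the RefSeq table. Windows were matched for 5 of the 10 members, 10 windows in all, and neither the FADD window, the 4 CFLAR windows, the CASP6 window nor the other 2 of the 3 CASP8 windows holds them. The printed CASP8 window also holds TTCNNNGAA, the letters of a STAT site, which occur in 7.66% of all windows, and this match does not overlap the capitals. The GC box GGGCGG, found in 45% of windows, occurs 3 times in the CASP6 window, 2 times in the FADD window and in 1 of the CFLAR windows, and 1 time in another CFLAR window and in the CASP8 window printed here. A match of letters is a description and does not show that a factor binds there.

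TNFRSF10B (DR5), the death receptor with named probe sets, was bright in all populations. Its brightest probe set (209295_at) read 2267 and 2334 units in S1b, 2366 and 2422 units in S1a, and 1644 and 1611 units in parental cells. All isolate arrays were above both parental arrays and the S1b arrays were just below the S1a arrays. The log2 difference was 0.53 for the isolates, 0.50 for S1b and 0.56 for S1a, each against parental.

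The other TNFRSF10B probe sets did not share that direction. Probe set 210405_x_at read 253 and 278 units in S1b, 247 and 221 units in S1a, and 330 and 285 units in parental cells, a log2 difference of -0.30 with all isolate arrays below. Probe set 209294_x_at read 198 and 272 units in S1b, 223 and 207 units in S1a, and 276 and 180 units in parental cells, and the populations overlapped. Averaged over its 3 probe sets, TNFRSF10B differed by 0.08 on the log2 scale. Both 210405_x_at and 209294_x_at carry the suffix _x_at, which Affymetrix gives to probe sets with probes that also match other transcripts. As the 3 probe sets disagree, no direction is given for the gene as a whole.

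TNFRSF10D (DcR2), a membrane receptor with a truncated death domain, had 1 probe set (210654_at). It read 89.4 and 94.7 units in S1b, 112 and 107 units in S1a, and 54.5 and 18.9 units in parental cells. Every isolate array was above both parental arrays, and both S1b arrays were below both S1a arrays. The parental mean of 36.7 ± 25.2 units (SD, n = 2) was dim. With the isolate mean of 101 units set against 44 units, the isolates were at least 2.29-fold higher than the parental line by mean. The parental arrays lay far apart for this gene: the log2 difference of isolates from parental was 1.51 with both, 2.19 without parental replicate 1 and 0.84 without parental replicate 2.

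TNFRSF10C (DcR1), a decoy held to the membrane by a lipid anchor, was dim in both of its own probe sets. Probe set 206222_at read 29.3 and 16.8 units in S1b, 43.9 and 29.7 units in S1a, and 47.6 and 6.89 units in parental cells. Probe set 211163_s_at read 13.3 and 15.1 units in S1b, 7.16 and 41.2 units in S1a, and 6.51 and 2.61 units in parental cells. The 2 probe sets shared with LOC254896 spread from 4.57 to 77.5 units, both on parental arrays. In each the isolate arrays overlapped the parental arrays, and in 210484_s_at both S1b arrays were above both S1a arrays. All population means of the own probe sets were below 44 units, so no fold is given for this receptor.

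TNFRSF11B (osteoprotegerin), the secreted decoy that also binds the bone-resorption ligand RANKL, was low in signal. Probe set 204932_at read 53.7 and 48.7 units in S1b, 52.6 and 44.4 units in S1a, and 80.2 and 85.9 units in parental cells. The isolate arrays overlapped each other and were all below both parental arrays, with a log2 difference of -0.70. Probe set 204933_s_at separated the isolates instead. It read 27.1 and 39.4 units in S1b, 66.3 and 52.8 units in S1a, and 74.1 and 59.2 units in parental cells, so that S1b was below the parental line by 0.94 on the log2 scale while S1a overlapped it.

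FADD, the adaptor, differed little. Its probe set (202535_at) read 2082 and 1938 units in S1b, 1921 and 1804 units in S1a, and 1963 and 2053 units in parental cells. S1b overlapped the parental line, and both S1a arrays were just below the other 4. The log2 difference of the isolates from parental was -0.05 as deposited and 0.14 when every array was centred on its median, and 5.52% of the genes tested had a smaller range between the population means.

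CASP8, the initiator caspase, was slightly lower in both isolates in both of its probe sets as deposited, but with every array centred on its median the brighter one came to -0.02 for the isolates and 0.04 for S1b, on the log2 scale against parental. Probe set 213373_s_at read 656 and 700.3 units in S1b, 642 and 600.0 units in S1a, and 753 and 751 units in parental cells. Probe set 207686_s_at read 127 and 163 units in S1b, 123 and 96.1 units in S1a, and 184 and 178 units in parental cells. All isolate arrays were below both parental arrays and both S1b arrays above both S1a arrays in each probe set. Over all named probe sets above 44 units, 24.1% had both S1b arrays above both S1a arrays. The log2 differences of isolates from parental were -0.21 and -0.52.

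CFLAR (c-FLIP), which competes with caspase 8 for FADD, was lower in both isolates in all 9 of its probe sets above 44 units. The brightest (209939_x_at) read 626 and 672 units in S1b, 691 and 665 units in S1a, and 1363 and 1444 units in parental cells. The isolate arrays overlapped each other and none came near the parental arrays. The population means were 649 ± 32.5 units in S1b, 678 ± 18.9 units in S1a and 1403 ± 57.1 units in parental cells (SD, n = 2 each), a log2 difference of -1.08 for the isolates. Over the 9 probe sets the difference lay between -1.82 and -0.98 with a median of -1.21. The largest was that of 208485_x_at, at 84.4 and 143 units in S1b, 90.9 and 69.2 units in S1a, and 308 and 378 units in parental cells.

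The CFLAR probe sets are not independent readings, because 8 of the 9 carry the suffix _x_at, which Affymetrix gives to probe sets with probes that also match other transcripts. CFLAR is spliced into long and short proteins, and the annotation used here does not say which transcript a probe set reads. S1b was above S1a in 5 of the 9 and below it in 4, with log2 differences from -0.21 to 0.45. Both remaining CFLAR probe sets were dim and overlapped.

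CASP6, the executing caspase, was lower in the isolates and lowest in S1b. Probe set 209790_s_at read 309 and 398 units in S1b, 469 and 479 units in S1a, and 1122 and 1085 units in parental cells. Probe set 211464_x_at read 290.1 and 301 units in S1b, 345 and 366 units in S1a, and 660.0 and 586 units in parental cells. In both, the 3 populations did not overlap and stood in the order S1b, S1a, parental from low to high. The log2 differences of isolates from parental were -1.43 and -0.93. Set against S1a, S1b was lower by log2 differences of -0.43 and -0.26. Over all named probe sets above 44 units, 24.2% had both S1b arrays below both S1a arrays.

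**Figure D2:**
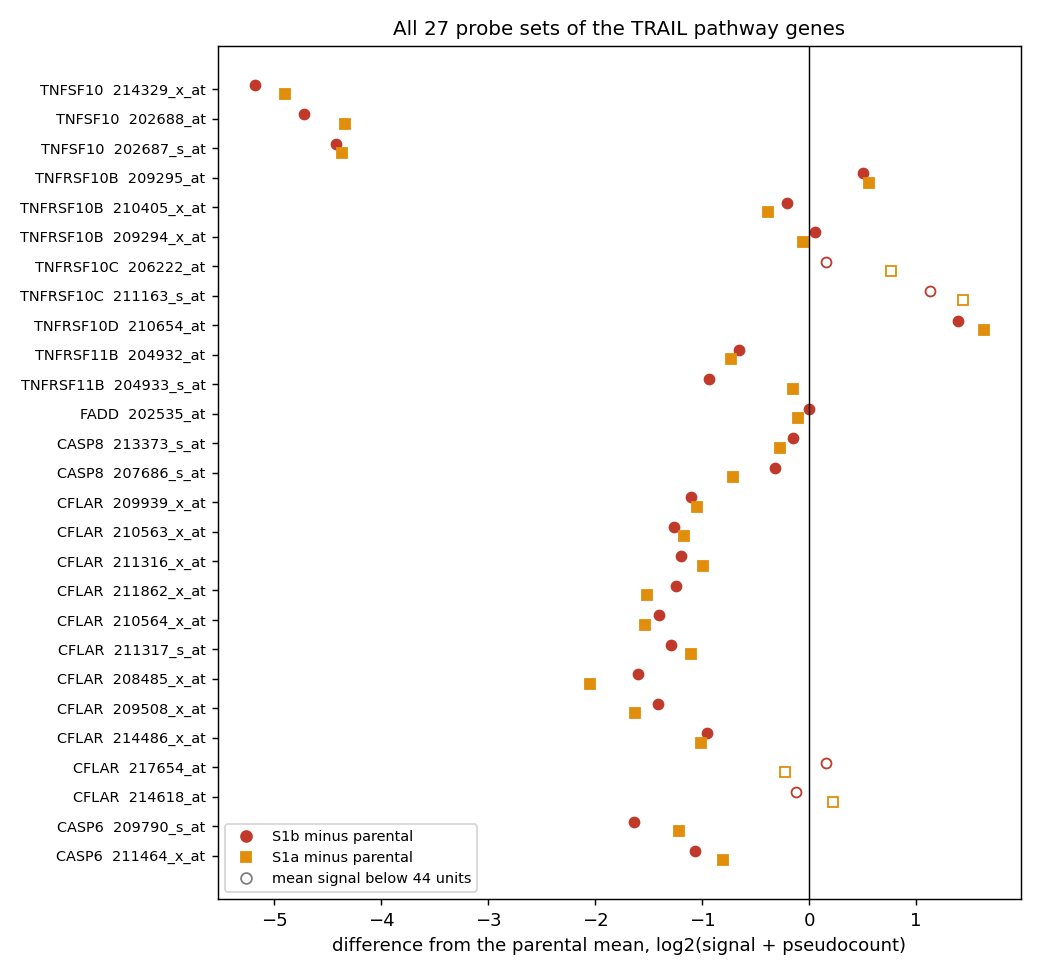
Log2 difference of S1b and of S1a from the parental line for each of the 27 member probe sets. Each point is a population mean of 2 arrays minus the parental mean of 2 arrays, and open marks are the 4 dim probe sets. The 3 TNFSF10 probe sets lie between -5.18 and -4.34, and the 3 of TNFRSF10B spread to both sides of 0. All 9 CFLAR probe sets above 44 units lie below 0, while the 2 dim ones lie on both sides of it.

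By brightest probe set, the members shared no direction. The range between population means was 5.18 for TNFSF10, 1.64 for CASP6, 1.63 for TNFRSF10D, 1.11 for CFLAR, 0.73 for TNFRSF11B, 0.56 for TNFRSF10B, 0.28 for CASP8 and 0.11 for FADD, on the log2 scale. TNFRSF10D has no firm place in this order relative to CASP6 and CFLAR, since its difference of S1a from parental was 2.31 without parental replicate 1 and 0.96 without parental replicate 2. In the fit over all genes, 5 of the 8 members above 44 units were past the threshold of 0.05 (2 higher and 3 lower) in isolates minus parental, where 46.2% of all genes were. The count was also 5 of 8 for S1b alone (41.6% of all genes) and for S1a alone (39.2%), and both isolates were set against the same parental arrays. None of the 8 was past the threshold between S1b and S1a, where 1.89% of all genes were (0.462% higher and 1.42% lower in S1b). Since the members were chosen on these signals, nothing is read from these counts.

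The genes whose pattern over the 6 arrays was most like that of TNFSF10 were RNF144A, CLIC3, RSAD2, SLCO3A1 and FLG. Likeness was the root mean square difference between log2 values centred on each gene's own mean, and it was 0.42, 0.44, 0.52, 0.52 and 0.54. CLIC3, which was closer than RSAD2, averaged 9.59 units in S1b, 4.52 units in S1a and 263 units in parental cells. RSAD2, an interferon-induced antiviral enzyme, averaged 6.82 units in S1b, 3.35 units in S1a and 220.5 units in parental cells. RNF144A, a ubiquitin ligase, averaged 3.56 units in S1b, 3.44 units in S1a and 141 units in parental cells. All 5 averaged below 44 units in both isolates and passed the filter through their parental signals. As they were chosen for likeness to TNFSF10, this follows largely from the choice.

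For CASP6 the most similar genes were SH2D4A, ZNF85, IFIT3, ZNF239 and RALGDS, with root mean square differences of 0.08 to 0.11. SH2D4A, the closest, averaged 129 units in S1b, 180 units in S1a and 375 units in parental cells. IFIT3, an interferon-induced protein with tetratricopeptide repeats, averaged 496 units in S1b, 607 units in S1a and 1632 units in parental cells. ZNF85, a zinc finger protein, averaged 174 units in S1b, 267 units in S1a and 557 units in parental cells. All 5 shared the order S1b, S1a, parental from low to high, which follows from choosing them for likeness to CASP6.

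Genes that act beside the members in the same pathway are no members and were tested with limma, adjusted over all 7791 genes. Of 67 such genes listed by role, 57 had a named probe set and 50 were above 44 units. In isolates minus parental, 9 of the 50 rose, 13 fell and 28 did not pass the threshold. The share past it was 44%, against 46.2% of all genes, and the median log2 change was -0.06, against -0.03 over all genes. With every array centred on its median, 16 of the 50 rose and 8 fell. Against the same parental arrays, 9 rose and 12 fell in S1b, where 20.7% and 20.9% of all genes did. In S1a 6 rose and 9 fell, where 19.4% and 19.9% of all genes did. Between S1b and S1a none of the 50 passed limma's test, while 9 had an unadjusted p under 0.05, and 14.9% of all genes did.

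Among adaptors and initiators 1 of 7 tested genes rose and none fell. It was CUL3, the scaffold of a ubiquitin ligase that modifies caspase 8 at the receptor. CUL3 averaged 2863 units in S1b, 2925 units in S1a and 1985 units in parental cells, a log2 change of 0.54 ± 0.08 (SE) with a limma adjusted p of 0.000345. RIPK1, TRAF2 and CASP10 were not tested.

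Among executing caspases and their substrates 4 of 11 rose, 4 fell and 3 did not pass. The nuclear lamins, which caspase 6 and other caspases cut, moved in opposite directions. LMNB1 averaged 758 units in S1b, 739 units in S1a and 454 units in parental cells (log2 change 0.73 ± 0.13 SE, limma adjusted p = 0.00118). LMNA averaged 2614 units in S1b, 3049 units in S1a and 3893 units in parental cells (-0.46 ± 0.08, adjusted p = 0.00134). PARP1, the DNA repair enzyme whose cleavage marks apoptosis, rose by 0.38 ± 0.09 (adjusted p = 0.00577), at 1307 units in S1b, 1100.3 units in S1a and 919.7 units in parental cells. Each against parental, PARP1 passed in S1b (limma adjusted p = 0.00325) but not in S1a (0.0693). SPTAN1, a spectrin of the membrane skeleton, averaged 718 units in S1b, 648 units in S1a and 962 units in parental cells (-0.50 ± 0.10, adjusted p = 0.0021). Without probe sets of the suffixes _x_at and _s_at the LMNA change was -0.19 (adjusted p = 0.229) and that of SPTAN1 -0.27 (adjusted p = 0.075).

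In the mitochondrial branch, which amplifies the signal through release of cytochrome c, 2 of 11 genes rose, 1 fell and 8 did not pass. MCL1, which holds the pore-forming proteins in check, averaged 3414 units in S1b, 3302 units in S1a and 2276 units in parental cells (0.56 ± 0.08, limma adjusted p = 0.000357), though 1 of its 4 other probe sets had the opposite sign. BAK1, one of the pore-forming proteins, averaged 236 units in S1b, 219 units in S1a and 359 units in parental cells (-0.65 ± 0.14, adjusted p = 0.00315). HTRA2, a mitochondrial protease that binds inhibitors of apoptosis proteins once released, averaged 887 units in S1b, 769.6 units in S1a and 665 units in parental cells (0.31 ± 0.09, adjusted p = 0.0133). Taken alone against parental, S1b passed for HTRA2 (limma adjusted p = 0.00765) and S1a did not (0.118). As a mean of all its probe sets, HTRA2 changed by 0.22 (adjusted p = 0.0579).

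Of 3 inhibitors of apoptosis proteins tested, 1 rose, 1 fell and 1 did not pass. BIRC5 (survivin), which also serves in cell division, averaged 3388 units in S1b, 3063 units in S1a and 2338 units in parental cells (0.46 ± 0.07, limma adjusted p = 0.000437). XIAP, which binds and blocks executing caspases, averaged 43.3 units in S1b, 63.2 units in S1a and 117.5 units in parental cells (-1.11 ± 0.29, adjusted p = 0.00985). Each against parental, XIAP passed in S1b (limma adjusted p = 0.00817) but not in S1a (0.0656). The XIAP call ended without parental replicate 1 (-0.98, adjusted p = 0.061) and without probe sets of the suffixes _x_at and _s_at (-0.64, adjusted p = 0.194).

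**Figure D3:**
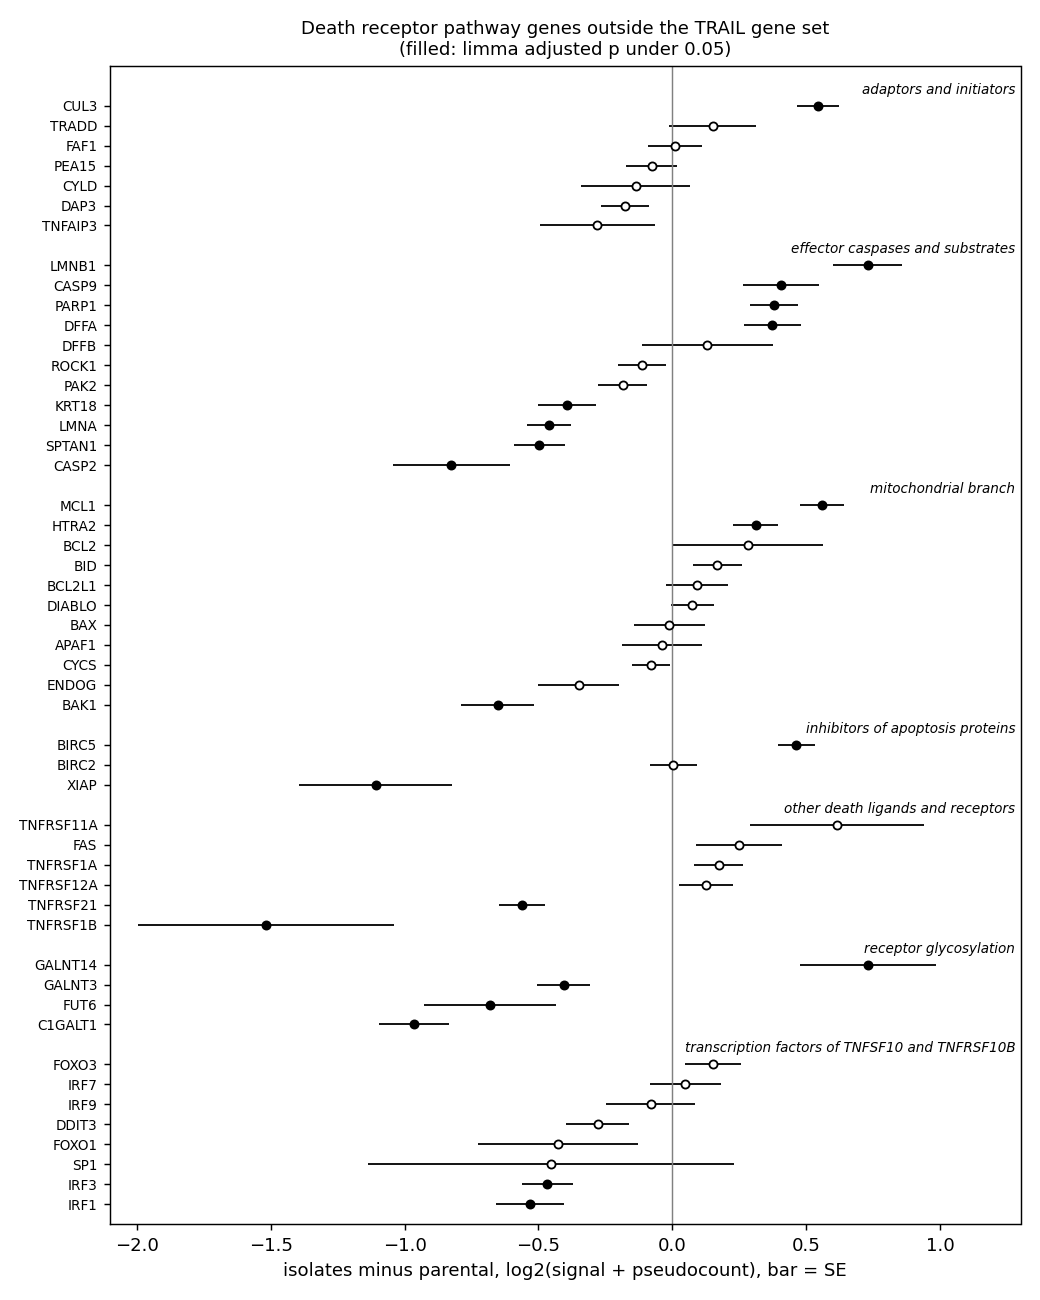
Log2 change of isolates minus parental with its standard error for the 50 tested pathway genes outside the members, grouped by role, with genes past the adjusted threshold of 0.05 marked. Changes run to both sides of 0 in most groups; 9 genes rose and 13 fell.

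Of 6 other death ligands and receptors tested, none rose, 2 fell and 4 did not pass. TNFRSF21 (DR6), a death-domain receptor, averaged 2087 units in S1b, 2629.7 units in S1a and 3473 units in parental cells (-0.56 ± 0.09, limma adjusted p = 0.000526), while its only other probe set had the opposite sign. TNFRSF1B, the second receptor for tumour necrosis factor, averaged 37.8 units in S1b, 20.0 units in S1a and 81.6 units in parental cells, at least 1.86-fold lower in the isolates (adjusted p = 0.0256). Taken alone against parental, S1a passed for TNFRSF1B (limma adjusted p = 0.0169) and S1b did not (0.161). The TNFRSF1B call ended in 6 of 17 alternatives, among them those without S1b replicate 1, S1b replicate 2, parental replicate 1 or parental replicate 2, with adjusted p from 0.0522 to 0.0964.

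Of 4 enzymes that attach sugars to death receptors, 3 fell and 1 rose, and 1 of these calls, that of C1GALT1, held in every alternative run. C1GALT1, which extends mucin-type O-glycans, averaged 399 units in S1b, 375 units in S1a and 763 units in parental cells (-0.96 ± 0.13, limma adjusted p = 0.000244). GALNT3, which starts such glycans, averaged 555 units in S1b, 571 units in S1a and 748 units in parental cells (-0.41 ± 0.10, adjusted p = 0.00774). FUT6, a fucosyltransferase, averaged 97.5 units in S1b, 96.1 units in S1a and 160.5 units in parental cells (-0.68 ± 0.25, adjusted p = 0.0447). Neither isolate passed for FUT6 alone against parental (limma adjusted p = 0.0838 for S1b and 0.0807 for S1a). GALNT14, also an initiating enzyme, averaged 127 units in S1b, 102 units in S1a and 66.0 units in parental cells (0.73 ± 0.26, adjusted p = 0.0389). For GALNT14, S1b alone passed against parental (limma adjusted p = 0.032) and S1a did not (0.159).

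GALNT3 turned to 0.35 as a mean of all its probe sets (adjusted p = 0.34), but its only other probe set was dim. The GALNT3 call also ended with median centring (-0.22, adjusted p = 0.122) and without parental replicate 1 (-0.33). The GALNT14 call ended in 8 of 17 alternatives (adjusted p from 0.0522 to 0.141), among them leaving out any 1 array other than S1a replicate 2. The FUT6 call ended in 11 of 16 (adjusted p from 0.0563 to 0.327), among them leaving out any 1 array other than parental replicate 2.

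Of 8 transcription factors with known sites in the TNFSF10 or TNFRSF10B genes, none rose, 2 fell and 6 did not pass. IRF3, which starts the interferon response to viral nucleic acid, averaged 469.6 units in S1b, 459 units in S1a and 643 units in parental cells (-0.47 ± 0.09, limma adjusted p = 0.00269). IRF1, an interferon-induced activator of transcription, averaged 225 units in S1b, 313 units in S1a and 387 units in parental cells (-0.53 ± 0.13, adjusted p = 0.00688). Each against parental, IRF1 passed in S1b (limma adjusted p = 0.00235) but not in S1a (0.139). The IRF1 call ended without parental replicate 2 (-0.42, adjusted p = 0.0542), and with median centring (-0.34, adjusted p = 0.0618), as did that of IRF3 (-0.28, adjusted p = 0.058). Whether these factors have a part in the TNFSF10 signal was not tested.

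The genes on either side of the members were tested in the same fit, 5 tested genes on each side by RefSeq order. Around the receptor cluster on chromosome 8, 5 of 10 neighbours rose and none fell, and around TNFRSF11B on the same chromosome the count was the same. Over the 20 genes the median log2 change was 0.28, against -0.03 over all genes, where 22.7% rose and 23.5% fell. The count was 10 risen with quantile normalization, 14 with median centring and 5 as a mean of all probe sets, with none fallen in each, and 5 of 13 without probe sets of the suffixes _x_at and _s_at. CHMP7, a subunit of the membrane-remodelling ESCRT machinery, averaged 494 units in S1b, 388 units in S1a and 263 units in parental cells (0.74 ± 0.14, limma adjusted p = 0.00156). SNTB1, a syntrophin of the membrane skeleton, averaged 74.9 units in S1b, 50.7 units in S1a and a dim 21.1 units in parental cells, at least 1.43-fold higher in the isolates (adjusted p = 0.016). Taken alone against parental, S1b passed for SNTB1 (limma adjusted p = 0.0162) and S1a did not (0.0722). The SNTB1 call ended without S1b replicate 1 (adjusted p = 0.0601) or without parental replicate 2 (adjusted p = 0.0624).

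**Figure D4:**
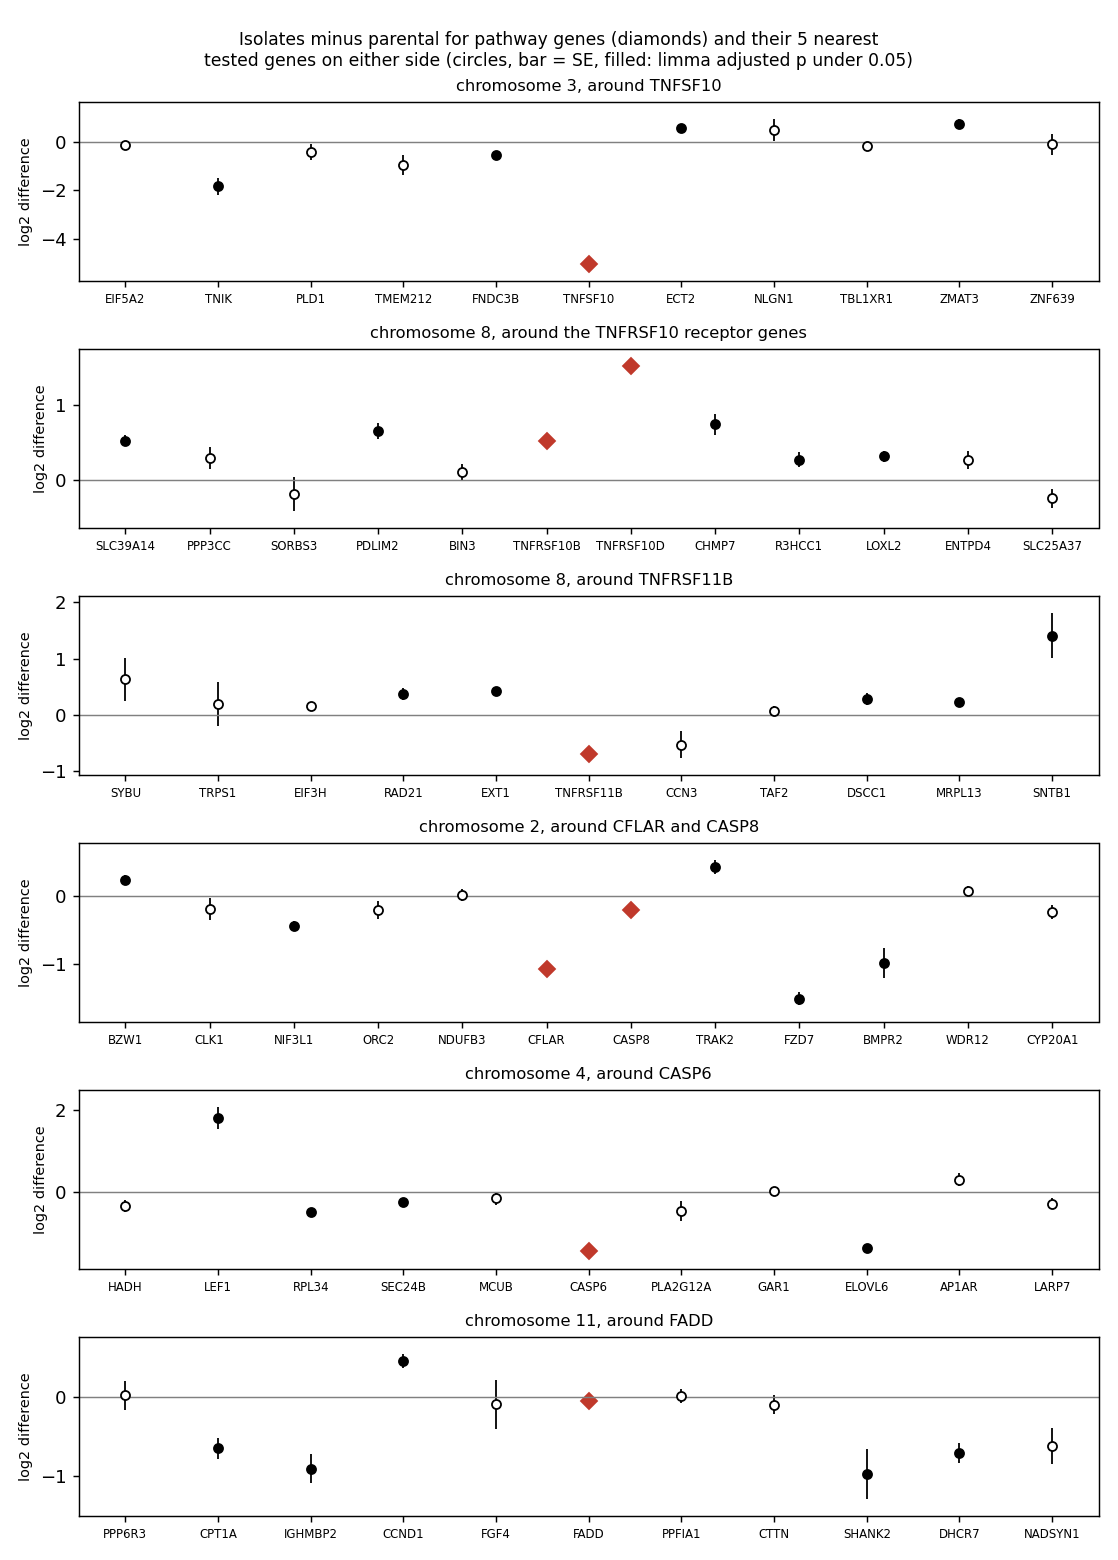
Log2 change of isolates minus parental with its standard error for the tested genes on either side of the members, in chromosomal order within each panel, with the members themselves in another colour. Around the members of chromosome 8, 10 of 20 neighbours are past the threshold, all above 0, while TNFSF10 stands at -5.04 among neighbours of both directions.

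Around TNFSF10 on chromosome 3, 2 of 10 neighbours rose and 2 fell, with a median of -0.16. The largest change past the threshold there was that of TNIK, a kinase of Wnt signalling. TNIK averaged 37.3 units in the isolates and 141 units in parental cells, at least 3.2-fold lower in the isolates (limma adjusted p = 0.00194). Around CASP8 and CFLAR, which share the same 10 tested neighbours on chromosome 2, 2 rose and 3 fell. FZD7, a Wnt receptor, averaged 646 units in the isolates and 1844 units in parental cells (-1.51 ± 0.09, adjusted p = 1.47e-06). Around CASP6 on chromosome 4, 1 rose and 3 fell. LEF1, a transcription factor of Wnt signalling, averaged 282 units in the isolates and 83.6 units in parental cells (1.81 ± 0.26, adjusted p = 0.000378). The LEF1 call ended as a mean of all probe sets (0.45, adjusted p = 0.287), but its 2 other probe sets were dim. Around FADD on chromosome 11, 1 rose and 4 fell. SHANK2, a synaptic scaffold, averaged a dim 30.4 units in S1b, 69.8 units in S1a and 94.2 units in parental cells. Its log2 change was -0.97 ± 0.31 for the isolates (limma adjusted p = 0.0275). Each against parental, it was -1.53 for S1b (adjusted p = 0.00718) and -0.41 for S1a (adjusted p = 0.393). The SHANK2 call for the isolates ended in 10 of 17 alternatives, among them leaving out any 1 array other than S1b replicate 2.

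The 3' to 5' signal ratio of GAPDH, a sign of RNA integrity, was 0.984 to 0.998 in S1b, 0.976 to 0.979 in S1a and 1.06 to 1.09 in parental cells. The same ratio of ACTB did not set the populations apart: it was 1.36 and 1.39 in S1b and 1.34 and 1.46 in S1a, and the parental arrays lay on either side of these, at up to 1.55. Of leukocyte markers 1 of 6 measured (CD14) was above 44 units, with summed signals of 89.2 to 123 in S1b, 142 to 159 in S1a and 255 to 272 in parental cells. Of natural killer cell markers, a cell type that carries TRAIL, 1 of 6 (PRF1) was above 44 units, with sums of 98.0 to 138 in S1b, 71.6 to 115 in S1a and 136 to 189 in parental cells. Of endothelial and fibroblast markers none of 6 was, with sums of 101 to 126 in S1b, 139 to 145 in S1a and 125 to 229 in parental cells. All 5 genes listed as present in MDA-MB-231 were above 44 units. Of 5 listed as low in the line ESR1, ERBB2 and EPCAM were also above it, with list sums of 559 to 591 in S1b, 654 to 658 in S1a and 691.5 to 818.5 in parental cells. No marker was listed at 0. Arrays of bulk RNA cannot tell fewer TRAIL-expressing cells from less TNFSF10 RNA per cell, and the part of the RNA ratio or the marker sums in the results was not tested.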

How the data were processed

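Total RNA of S1b, S1a and parental MDA-MB-231 cells, labelled with biotin, was measured on 6 one-colour arrays, 2 per population. The deposited values are intensities on a linear scale, which the authors made with MAS5, a tool named in the submitters' processing notes; its version is not given in the sources used here. Control probe sets (62 of 22277) were left out. The platform annotation gave 1 symbol for 19064 probe sets, several for 1043 and none for 2108, and 19052 were matched to RefSeq (GRCh38.p14) by gene ID. Arrays have no read depth, and their number limits the precision.

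Each gene took its brightest probe set, and probe sets with a mean below the 40th percentile (44 units) were left out of the tests. log2(signal + 3.949), the pseudocount being the 10th percentile of all signals, was fitted with limma 3.58.1 in R 4.3.3 as 3 population means over 6 arrays, with a variance trend and Benjamini-Hochberg adjustment over 7791 genes at 0.05. The fit was tested on simulated data. Where 1 side averaged below 44 units, "at least" folds set the brighter mean against 44.

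The members and gene lists were chosen with earlier results of these data known. Named were all members, up to 4 genes per list past the threshold with the smallest p in isolates minus parental, up to 3 in S1b minus S1a, the 5 genes most like each of the 2 members of largest range, and per member the neighbour of largest change past the threshold. Alternatives changed the pseudocount, filter, scaling, choice of probe set, variance trend, array weights, replicate block and arrays used. Replicate numbers did not pair arrays, so the main fit has no block.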

Additional observations from a re-analysis of the deposited data

How the results depend on the processing

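With 2 arrays per population the precision is limited, and leaving out an array leaves 1 population with a lone array that is assumed to vary like the others. Without probe sets of the suffixes _x_at and _s_at, which leaves fewer genes to test, 2062 genes passed in isolates minus parental, 1895 in S1b minus parental and 1731 in S1a minus parental, against 3600, 3244 and 3057, and 7 pathway genes fell in isolates and in S1b, against 13 and 12. CASP8, CFLAR and CASP6 have no value under that setting. Centring arrays on their medians moved the median of all genes from -0.03 to 0.17 in isolates minus parental, and 71.3% of the genes past the threshold were then higher, against 49.2%. It gave 16 risen and 8 fallen pathway genes in isolates, 6 fallen in S1b, and 12 risen and 4 fallen in S1a. Between S1b and S1a the count of all genes, 147, was 63 with no filter, 60 with the mean of all probe sets, 58 without the suffixes, 4 with no variance trend, 320 with array weights and 64 with the replicate block. Median centring moves every log2 difference in a contrast by the same amount. Over all probe sets the array medians were 88.9 and 89.6 units in S1b, 87.6 and 91.7 units in S1a, and 106 and 98.6 units in parental cells. Why the parental medians were higher, and the cause of the other shifts, was not tested.

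Leaving out 1 array gave 22 to 343 genes between S1b and S1a: 46 and 22 without S1b replicate 1 and 2, 34 and 36 without S1a replicate 1 and 2, and 339 and 343 without parental replicate 1 and 2. In the last pair 1 pathway gene passed as lower, against 0 with all arrays: TNFRSF21, at a log2 difference of -0.33. In S1a minus parental it gave 1900 to 2920 genes, the lowest counts being 1960 and 1900 without S1a replicate 1 and 2, and 3 to 9 fallen pathway genes (3 and 5 without those arrays). In isolates minus parental 3016 to 3295 genes passed, and in S1b minus parental 2223 to 3151.

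Same-numbered arrays did not deviate together (correlations of -0.06, -0.07 and -0.005), so the numbers do not pair them; with the replicate block 3350 genes passed in isolates minus parental, 2984 in S1b and 2757 in S1a minus parental. Of the 24 named pathway and neighbouring genes, 11 stayed past the threshold with their sign in every alternative run. GALNT3 reversed to 0.35 as the mean of its probe sets, of which all but the brightest are dim. Over all alternatives the log2 difference of isolates from parental lay between -5.26 and -4.45 for TNFSF10, -1.52 and -1.18 for CASP6, -1.12 and -0.89 for CFLAR, and 0.84 and 2.19 for TNFRSF10D, and on both sides of 0 for FADD.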

Other observations

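The interferon response letters (GAAA, any 2 bases, GAAA) that the TNFSF10 and CASP8 promoters share were found in a promoter window of 272 of the tested genes. In isolates minus parental 55 of these rose and 89 fell, which is 20.2% and 32.7% of them, with a median log2 change of -0.09. Among 6232 tested genes with a window but without these letters, 22.9% rose and 23% fell, with a median of -0.02. The letters do not show that a factor binds, the 2 members are among the genes counted, and no test of the difference was made.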
